A study of Mus musculus with 30 samples.

Results

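Axon guidance cues and their receptors were followed in cultured mouse epiblast stem cells (EpiSCs), which hold the primed pluripotent state of the early post-implantation epiblast, and in definitive endoderm (DE) made from them. The set was taken by gene name and holds every ephrin, Eph receptor, class 3 to 7 semaphorin, plexin, neuropilin, Slit, Robo, netrin and Unc5 receptor listed in both gene tables. It came to 67 genes of 29555 Ensembl identifiers, of which 29270 had a symbol. There were 34 ligands and 33 receptors: 22 Eph receptors and ephrins, 20 semaphorins, 11 plexins and neuropilins, 7 Slit and Robo genes, and 7 netrins and Unc5 receptors.

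All EpiSCs were at passage 5 to 10 and grew on feeder cells in an N2B27-based medium with Fgf2, ActivinA and NVP-TNKS656, an inhibitor of Wnt signalling. For DE, per the labels, C57BL/6 (B6) EpiSCs received CHIR99201 and ActivinA for 16 h and then ActivinA and LDN193189 for 24 h, with 46 h given in all, and CXCR4+ cells were collected by magnetic sorting. RNA libraries of 5 B6 EpiSC and 4 B6 DE samples were compared first, followed by EpiSCs of PWK/PhJ (PWK, 3 samples), B6.129 F1 (3 samples) and DBA/2J (DBA, 1 sample). Open chromatin was measured by ATAC-seq, in which a transposase cuts accessible DNA, in 4 B6 EpiSC, 4 B6 DE, 2 PWK EpiSC and 1 DBA EpiSC samples. The labels call the samples biological replicates without saying what was repeated, so the p-values measure the spread between these samples. One column each of the PWK RNA, PWK ATAC and B6.129 F1 RNA data gives the strain and cell type but no replicate of the labels. These 3 libraries were placed by group, are called unnumbered here, and may not be separate cultures. The 3 PWK DE samples were not analysed here.

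These families were named for steering growing axons, and the same proteins sort and position cells in the gastrulating embryo. Ephrins are cell-surface ligands of the Eph receptor tyrosine kinases: A-class ephrins are held by a lipid anchor and mainly bind EphA receptors, whereas B-class ephrins span the membrane and mainly bind EphB receptors. Semaphorins signal through plexins, the secreted class 3 members with neuropilins as co-receptors. Slits are secreted ligands of Robo receptors, and netrins bind Dcc and Unc5 receptors.

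RNA libraries held 22829536 to 66563933 counts in genes and ATAC libraries 3751526 to 9571127 counts in peaks. Levels are given as counts-per-million values (CPM) on library sizes scaled by the trimmed mean of M-values (TMM), and they are not comparable between genes because transcript length was not used. A gene was called where its adjusted p from edgeR's quasi-likelihood test, corrected over every gene tested by the Benjamini-Hochberg method, was under 0.05. All 8 definitive endoderm markers were higher in DE, among them Cxcr4, the marker used for the sort. Of 8 pluripotency markers, 5 were lower in DE, among them Pou5f1 with a log2 change of -6.47, and 2 were higher, Fgf5 and Otx2. Their summed level was 3499 to 4740 CPM in EpiSCs and 3150 to 4121 CPM in DE. Feeder fibroblast markers also differed: 12 of 15 were lower in DE and 1, Pdgfra, was higher. Their summed level was 144, 1483, 612, 1482 and 3425 CPM in EpiSC replicates 1, 2, 4, 44 and 51, and 415, 195, 173 and 182 CPM in DE replicates 2, 4, 44 and 51. The part of feeder cells in the gene differences below was not tested as a cause; values from EpiSC replicate 1, whose feeder sum was below every DE library, are given where they bear on a result. Neuroectoderm markers summed to between 370.0 and 844 CPM in EpiSCs and between 17.2 and 30.8 CPM in DE, with 3 of 5 tested lower and 1 higher in DE. Marker sums of 3 further lineages were small in both groups: 0.343 to 1.44 CPM in EpiSCs and 3.25 to 15.9 CPM in DE for visceral endoderm, 1.39 to 4.48 CPM and 1.10 to 2.85 CPM for mesoderm, and 3.16 to 5.12 CPM and 0.235 to 2.11 CPM for endothelium. In bulk libraries, fewer cells of a type and less RNA per cell cannot be told apart.

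The guidance genes divided between the 2 cell states, with more members lower in DE than higher. Of 61 members tested, 19 were higher in DE and 28 lower, and 14 were not called. Over all 14085 genes tested, 31.5% were called higher and 30.6% lower, 62% in all. The members' median log2 change was -1.17, against -0.01 for all genes. With a 2-fold limit added, 14 members were higher and 28 lower, and 21.1% and 24.2% of all genes. The groups did not overlap for 38 members, where 55.6% of all genes tested had no overlap. EpiSC replicate 1 read above every DE library for 26 of the 28 lower members, the exceptions being Sema3a and Sema4b. It read below every DE library for 17 of the 19 higher members, all but Epha7 and Robo1. Replicate 1 was itself among the libraries that gave these calls, so these counts are a description and no separate test. No share over all called genes was counted. With EpiSC replicates 1 and 4 alone, the 2 libraries with the lowest feeder sums, 12 members were called higher and 21 lower, and in that fit 19.2% of all genes were called higher and 21.4% lower. The calls lost there were those of Efna5, Efnb1, Epha7, Ephb1, Ephb4, Ephb6, Ntn4, Robo1, Sema3a, Sema4a, Sema4b and Sema5b, and Epha3 and Unc5c were not tested.

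**Figure D1:**
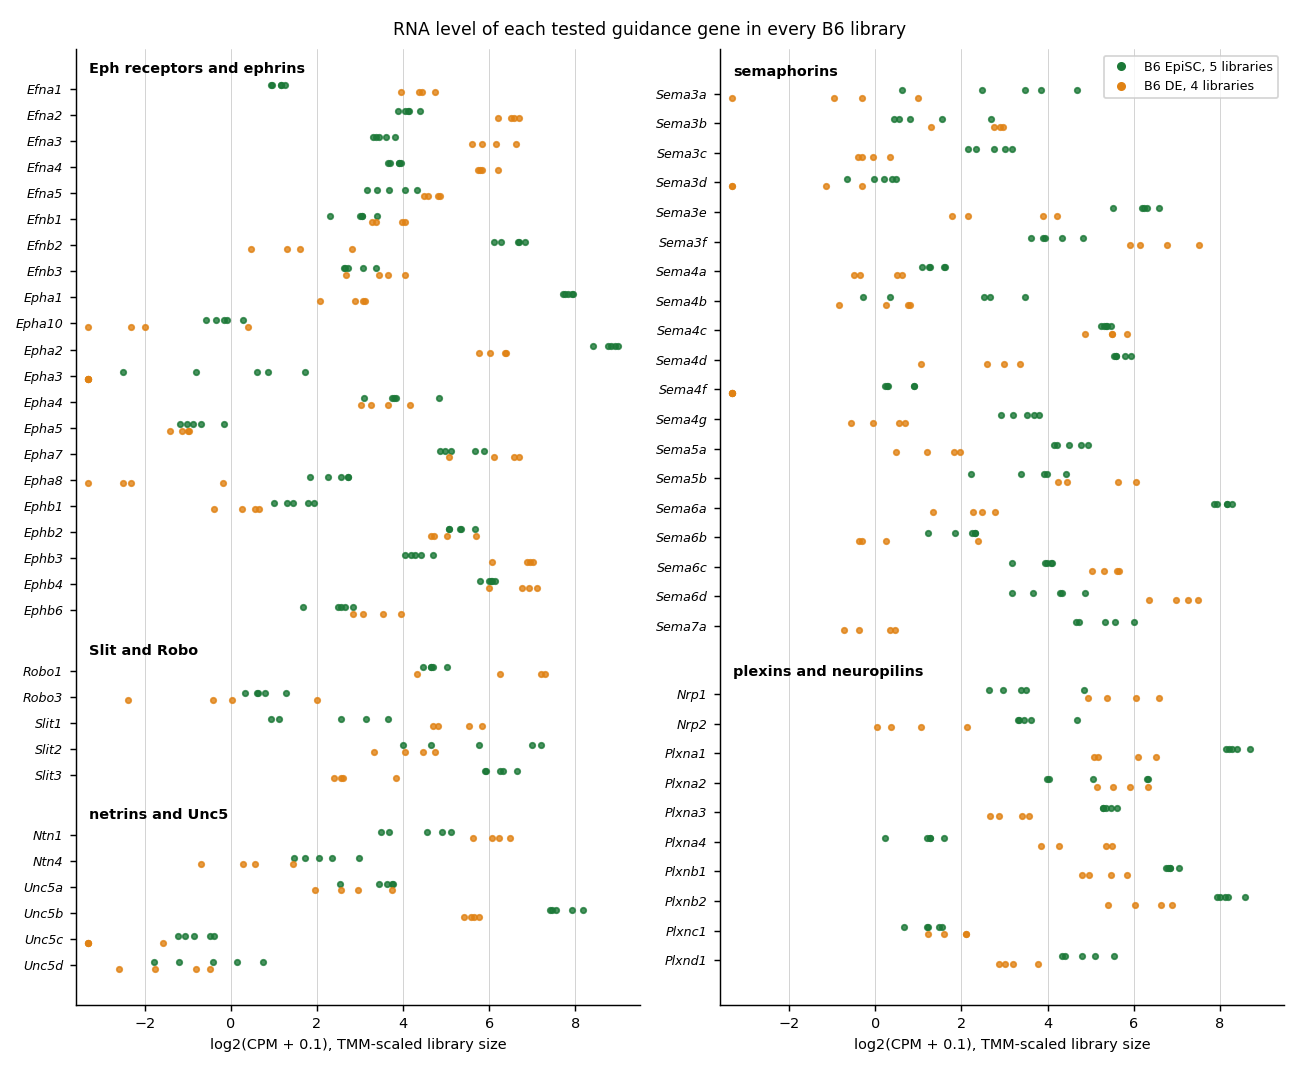
RNA level of each tested guidance gene, as log2 of CPM plus 0.1, in the 5 B6 EpiSC libraries (green) and the 4 B6 DE libraries (orange), 1 point per library. The 5 A-class ephrins lie to the right in DE, and Epha1, Efnb2, Sema6a and Sema7a lie far to the left.

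**Figure D2:**
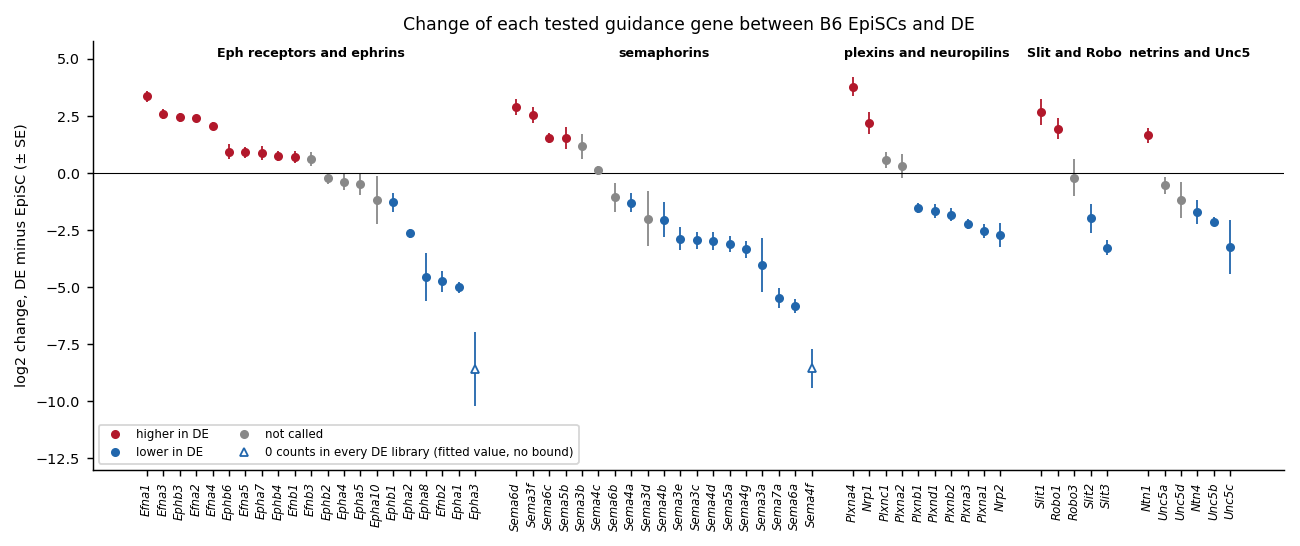
Fitted log2 change of DE minus EpiSC for each tested guidance gene, ordered within its family, with bars of 1 standard error. Red points are higher in DE, blue points lower and grey points not called; the open triangles, Epha3 and Sema4f, had 0 counts in every DE library, and their fitted values are no bound.

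A-class ephrins rose as a group. All 5 (Efna1 to Efna5) were higher in DE, with no overlap between groups for any of them, and all 5 were also called under relative-log-expression and total-count scaling. Efna1 read 1.82, 1.83, 2.13, 2.30 and 2.14 CPM in EpiSC replicates 1, 2, 4, 44 and 51, and 26.6, 20.6, 21.4 and 15.3 CPM in DE replicates 2, 4, 44 and 51, the order kept for every gene below. The log2 change was 3.36 ± 0.23 (SE, adjusted p = 1.80e-06). Efna3 read 11.9, 9.71, 13.8, 10.3 and 10.8 CPM in EpiSCs and 57.2, 97.7, 71.3 and 48.4 CPM in DE, a log2 change of 2.60 ± 0.22 (SE, adjusted p = 5.99e-06). Every DE library was thus several times above the highest EpiSC library for both. Efna2 and Efna4 changed by 2.39 and 2.08, and Efna5 by 0.91. With EpiSC replicates 1 and 4 alone, or with the 2-fold limit, 4 of the 5 were called and Efna5 was not. Efna1, Efna3 and Efna4 lie close together on chromosome 3, at chr3:89271730-89280951, chr3:89313899-89322939 and chr3:89333393-89338028 (RefSeq, GRCm38.p6), and Efna2 and Efna5 lie on chromosomes 10 and 17.

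Chromatin at the Efna1 and Efna3 starts was also more open in DE. The peak over the Efna1 start, at chr3:89280799-89281299 (mm10), read 17.1, 14.9, 13.5 and 14.4 CPM in ATAC EpiSC replicates 1, 4, 44 and 51, and 25.1, 33.2, 27.8 and 24.5 CPM in DE replicates 2, 4, 44 and 51. Its log2 change was 0.88 ± 0.18 (SE, adjusted p = 0.000207). At Efna3 the peak at chr3:89321475-89321750 read 5.60, 5.61, 7.14 and 2.79 CPM in EpiSCs and 10.5, 15.6, 14.5 and 11.5 CPM in DE, a log2 change of 1.33 ± 0.29 (SE, adjusted p = 0.000429). The groups did not overlap at either peak. The 250 bases before the Efna1 start are shown because all of them lie under the called peak. They run 5′ to 3′ on the minus strand of GRCm38.p6 at chr3:89280952-89281201 (RefSeq), and capitals mark bases under the peak.
Efna1: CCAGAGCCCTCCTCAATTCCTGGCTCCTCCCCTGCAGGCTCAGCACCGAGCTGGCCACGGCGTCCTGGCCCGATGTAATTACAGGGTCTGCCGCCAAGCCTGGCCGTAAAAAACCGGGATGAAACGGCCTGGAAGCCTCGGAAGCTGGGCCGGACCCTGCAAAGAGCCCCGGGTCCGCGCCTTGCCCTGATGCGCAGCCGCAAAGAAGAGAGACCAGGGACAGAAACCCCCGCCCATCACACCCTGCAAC
None of the 6 short motif words searched, named with the other start sequences below, occurs in this stretch.

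B-class ephrins did not share one direction. Efnb2, a ligand of Ephb4 in the developing vasculature, read 102, 77.4, 104, 68.6 and 114 CPM in EpiSCs and 1.27, 2.92, 2.35 and 6.95 CPM in DE, a log2 change of -4.75 ± 0.47 (SE, adjusted p = 1.51e-05). All EpiSC libraries were above all DE libraries, and DE replicate 51 was the highest of its group; without it the log2 change was -5.38. The peak over the Efnb2 start was not called: the stretch at chr8:8661101-8661591 read 32.5, 29.0, 31.9 and 39.2 CPM in EpiSCs and 28.8, 31.1, 30.8 and 34.3 CPM in DE, a log2 difference of -0.09 ± 0.15 (SE, adjusted p = 0.637), with the groups overlapping. Efnb1 read 4.86, 8.15, 7.94, 8.19 and 10.3 CPM in EpiSCs and 10.2, 16.4, 15.6 and 9.57 CPM in DE, and its log2 change of 0.71 ± 0.28 (SE, adjusted p = 0.0433) lost its call under 13 of 17 alternatives. Efnb3 was not called, at 0.61.

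Eph receptors changed in both directions. Of 8 EphA genes tested, 4 were lower (Epha1, Epha2, Epha3 and Epha8) and Epha7 was higher. Epha1 read 246, 243, 227, 215 and 209 CPM in EpiSCs and 7.22, 8.31, 4.07 and 8.54 CPM in DE, a log2 change of -5.01 ± 0.24 (SE, adjusted p = 3.89e-07). This was a tight difference in both groups, although the gene shares bases with Zyx and the use of strand in counting was not given. Epha2, a receptor also known for activity without its ligand, went from 443 ± 63.9 CPM (SD, n = 5) in EpiSCs to 70.9 ± 14.4 CPM (SD, n = 4) in DE, a log2 change of -2.64. Epha3 had no count in any DE library and 0.0759, 1.71, 0.469, 1.42 and 3.21 CPM in EpiSCs. Taking 3 counts per library as the floor, it was at least 15.1-fold lower in DE. Epha3 was lowest in EpiSC replicate 1 and highest in replicate 51, the libraries with the lowest and highest feeder sums, and its counts were too few to be tested without any 1 of EpiSC replicates 2, 4, 44 and 51. Epha8 changed by -4.57 and Epha7 by 0.88, the latter with overlapping groups and a call that was lost without any 1 of 6 libraries and under total-count scaling.

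Of the 5 EphB genes, Ephb3, Ephb4 and Ephb6 were higher in DE, Ephb1 was lower and Ephb2 was not called. With EpiSC replicates 1 and 4 alone, Ephb3 was the 1 EphB gene still called. Smaller shares of all genes were also called in that fit, which has fewer libraries. The Ephb6 log2 change was 1.19 there (adjusted p = 0.0906), so its call was lost without a smaller change. Ephb3, a receptor of B-class ephrins known from intestinal crypt epithelium, read 18.0, 16.4, 25.9, 21.3 and 19.3 CPM in EpiSCs and 67.0, 118, 129.5 and 122 CPM in DE, a log2 change of 2.44 ± 0.22 (SE, adjusted p = 7.98e-06). The peak over its start, at chr16:21204348-21204824, was higher in DE by a log2 value of 0.37 ± 0.15 (SE, adjusted p = 0.0422), with EpiSC replicate 51 above every DE library. Ephb6, which lacks kinase activity, read 3.11, 5.52, 5.74, 6.15 and 7.06 CPM in EpiSCs and 7.02, 8.33, 15.5 and 11.4 CPM in DE, a log2 change of 0.94 ± 0.32 (SE, adjusted p = 0.026). Its groups overlapped, because EpiSC replicate 51 lay just above DE replicate 2, and the call was lost without EpiSC replicate 2, DE replicate 44 or DE replicate 51. Ephb4 changed by 0.75 and Ephb1 by -1.28.

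Semaphorins were the family with the lowest median change, at -2.04. Of 19 tested, 11 were lower in DE and 4 higher. Sema6a, a transmembrane ligand of A-class plexins, read 313, 233, 289, 244 and 286 CPM in EpiSCs and 6.77, 2.44, 4.69 and 5.48 CPM in DE, a log2 change of -5.83 ± 0.31 (SE, adjusted p = 6.38e-07). Sema7a, the member with a lipid anchor, read 25.3, 26.3, 40.0, 47.0 and 64.4 CPM in EpiSCs and 1.17, 1.28, 0.508 and 0.667 CPM in DE, a log2 change of -5.48 ± 0.43 (SE, adjusted p = 3.71e-06). Both were far apart between groups in every library. Sema4f, a transmembrane semaphorin, read 1.14, 1.07, 1.77, 1.78 and 1.11 CPM in EpiSCs and had no count in any DE library, at least 15.0-fold lower on the same floor. Of the 6 class 4 genes tested, 5 were lower in DE, none was higher, and Sema4c was not called, at 0.11. Sema4d, a ligand of Plxnb1, changed by -2.98, Sema4g by -3.35 and Sema4b by -2.04, the last losing its call without any 1 of 7 libraries.

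Among secreted class 3 semaphorins, Sema3a, Sema3c and Sema3e were lower in DE, by log2 values of -4.03, -2.95 and -2.87. Sema3c read 4.32, 8.95, 4.94, 7.96 and 6.69 CPM in EpiSCs and 0.865, 0.713, 1.17 and 0.652 CPM in DE (adjusted p = 8.61e-05), with no overlap. Sema3a differed over a wide range between EpiSC libraries, as described below. These 3 genes and Sema3d lie on chromosome 5, between 12383161 and 17730268 (RefSeq, GRCm38.p6). Sema3f, on chromosome 9, went the other way. It read 15.3, 14.7, 28.1, 20.1 and 12.2 CPM in EpiSCs and 71.2, 109, 184 and 60.6 CPM in DE, a log2 change of 2.55 ± 0.36 (SE, adjusted p = 0.00014).

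The remaining semaphorins called higher in DE were transmembrane. Sema6d read 19.3, 8.95, 20.2, 29.2 and 12.6 CPM in EpiSCs and 81.6, 179.6, 152 and 126 CPM in DE, a log2 change of 2.90 ± 0.35 (SE, adjusted p = 5.13e-05). Sema6c read 8.99, 15.7, 16.9, 15.3 and 17.0 CPM in EpiSCs and 32.7, 50.6, 48.8 and 39.7 CPM in DE, a log2 change of 1.54 ± 0.22 (SE, adjusted p = 0.000173). The groups were apart for both genes, and class 6 therefore held the lowest called fold, Sema6a, among genes with DE counts and also 2 genes that rose. Sema5b changed by 1.54, with overlapping groups and no call without DE replicate 4, while Sema5a fell by 3.12 on the log2 scale. Sema4a, known for roles in immune cells and retina, read 2.01, 2.29, 3.0, 2.33 and 2.92 CPM in EpiSCs and 0.610, 1.33, 1.45 and 0.683 CPM in DE, a log2 change of -1.30 ± 0.42 (SE, adjusted p = 0.0213).

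Of the 8 semaphorins given by library, 3 had a called change at their most accessible start peak, in the direction of the RNA at Sema4a and Sema4f and against it at Sema7a. No start was given for Sema3f and Sema6a, so their peak may lie at either end of the gene. The Sema4f peak at chr6:82939595-82939897 read 37.1, 39.3, 38.3 and 44.3 CPM in EpiSCs and 26.8, 23.9, 24.6 and 21.9 CPM in DE, a log2 change of -0.71 ± 0.14 (SE, adjusted p = 0.000269). A gene with no RNA counts in DE thus kept a start peak there. The Sema4a peak at chr3:88458798-88459015 read 13.1, 13.2, 13.5 and 17.5 CPM in EpiSCs and 4.53, 10.9, 8.87 and 9.51 CPM in DE, a log2 change of -0.76 ± 0.26 (SE, adjusted p = 0.0161). The Sema7a peak at chr9:57940046-57940181 read 5.76, 4.61, 4.34 and 3.41 CPM in EpiSCs and 8.64, 7.57, 6.73 and 6.92 CPM in DE, a log2 change of 0.72 ± 0.29 (SE, adjusted p = 0.042). Every DE library of the Sema7a peak lay above every EpiSC library, while its RNA was lower in DE. The 250 bases before each start follow, because they hold the accessible stretch beside 3 genes whose RNA was lower in DE. They are read 5′ to 3′ on the gene's strand from RefSeq (GRCm38.p6; Sema4a chr3:88458885-88459134, minus strand; Sema4f chr6:82939770-82940019, minus strand; Sema7a chr9:57939862-57940111, plus strand), with bases under the called peak in capitals.
Sema4a: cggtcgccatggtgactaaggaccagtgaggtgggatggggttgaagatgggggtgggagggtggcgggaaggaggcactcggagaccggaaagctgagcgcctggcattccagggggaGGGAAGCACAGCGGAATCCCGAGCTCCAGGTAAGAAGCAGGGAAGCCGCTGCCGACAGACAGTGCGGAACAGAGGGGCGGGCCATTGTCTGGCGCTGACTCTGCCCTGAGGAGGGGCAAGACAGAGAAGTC
Sema4f: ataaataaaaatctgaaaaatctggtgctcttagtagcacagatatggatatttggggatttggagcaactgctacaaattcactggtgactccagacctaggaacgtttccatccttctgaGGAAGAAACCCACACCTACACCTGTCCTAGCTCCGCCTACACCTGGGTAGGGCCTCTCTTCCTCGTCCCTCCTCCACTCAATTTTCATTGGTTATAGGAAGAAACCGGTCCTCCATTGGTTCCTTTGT
Sema7a: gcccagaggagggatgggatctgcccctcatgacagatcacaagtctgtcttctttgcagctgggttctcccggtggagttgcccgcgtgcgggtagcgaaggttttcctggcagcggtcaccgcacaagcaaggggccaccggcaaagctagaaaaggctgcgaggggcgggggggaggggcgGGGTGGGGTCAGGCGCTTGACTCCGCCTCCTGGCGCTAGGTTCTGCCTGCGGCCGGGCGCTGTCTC
In these 3 windows the peak covers the bases next to the start, which is the right-hand end of each line.

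Plexins and neuropilins were mostly lower in DE, with Plxna4 and Nrp1 as the 2 higher members. Of 10 tested, 6 were lower and 2 not called. Plxna1 read 282, 314, 419, 340.2 and 299 CPM in EpiSCs and 35.8, 68.6, 33.7 and 91.7 CPM in DE, a log2 change of -2.52 ± 0.31 (SE, adjusted p = 6.64e-05). Plxna3 read 38.9, 48.7, 38.9, 44.1 and 40.6 CPM in EpiSCs and 7.22, 10.5, 6.22 and 11.8 CPM in DE, a log2 change of -2.23 ± 0.22 (SE, adjusted p = 1.51e-05). In contrast, Plxna4, another A-class plexin used by class 3 and class 6 semaphorins, read 2.20, 1.07, 2.31, 2.91 and 2.33 CPM in EpiSCs and 14.2, 45.3, 41.0 and 19.1 CPM in DE. Its log2 change of 3.79 ± 0.41 (SE, adjusted p = 2.94e-05) was the largest rise among the 61 members tested. The B-class plexins Plxnb1 and Plxnb2 changed by -1.53 and -1.83, and Plxnd1, the receptor of Sema3e, by -1.65.

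The pair of neuropilins moved in opposite directions. Nrp1, co-receptor of Sema3a and of vascular endothelial growth factor, read 6.14, 11.2, 7.69, 10.3 and 28.7 CPM in EpiSCs and 41.3, 66.5, 30.7 and 96.0 CPM in DE, a log2 change of 2.20 ± 0.48 (SE, adjusted p = 0.00244). Nrp2, co-receptor of Sema3c and Sema3f, read 9.90, 10.1, 12.2, 10.8 and 25.8 CPM in EpiSCs and 1.98, 0.929, 4.26 and 1.20 CPM in DE, a log2 change of -2.73 ± 0.53 (SE, adjusted p = 0.00114). EpiSC replicate 51 stood apart at the top for both, so that it lay nearest to DE for Nrp1 and farthest from DE for Nrp2. With EpiSC replicates 1 and 4 alone, the log2 change of Nrp1 was 3.0. Without DE replicate 44, the highest DE library for Nrp2, its log2 change was -3.35. The peak over the Nrp1 start was small, at 2.40, 3.21, 6.12 and 0.930 CPM in EpiSCs and 1.23, 0.987, 0.859 and 2.88 CPM in DE, and was not called.

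Slit and Robo genes divided evenly. Slit1 and Robo1 were higher in DE, Slit2 and Slit3 were lower and Robo3 was not called. Slit1 read 5.77, 2.06, 12.4, 8.67 and 1.81 CPM in EpiSCs and 28, 46.4, 56.7 and 25.9 CPM in DE, a log2 change of 2.67 ± 0.55 (SE, adjusted p = 0.00173). Slit3 read 60.8, 79.5, 76.2, 100.3 and 59.9 CPM in EpiSCs and 5.8, 5.16, 5.95 and 14.2 CPM in DE, a log2 change of -3.27 ± 0.35 (SE, adjusted p = 2.37e-05). Its 4 DE libraries were all below the EpiSC range, with DE replicate 51 apart from the other 3. Slit2 read 127, 15.8, 148, 54.3 and 24.8 CPM in EpiSCs and 9.87, 21.8, 26.6 and 16.4 CPM in DE, a log2 change of -1.98 ± 0.64 (SE, adjusted p = 0.02). EpiSC replicates 2 and 51 fell among the DE libraries, and the call was lost without DE replicate 2 or DE replicate 51. With EpiSC replicates 1 and 4 alone, the log2 change was -2.94 for Slit2 and 2.05 for Slit1. Robo1, the receptor for these 3 ligands, read 25.6, 25.0, 32.3, 21.9 and 24.8 CPM in EpiSCs and 19.9, 156, 147 and 75.8 CPM in DE, a log2 change of 1.94 ± 0.46 (SE, adjusted p = 0.00389). DE replicate 2 read below all EpiSC libraries and the other 3 DE libraries read above all of them.

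Of the netrins, Ntn1 was higher and Ntn4 lower in DE, and of the Unc5 receptors Unc5b and Unc5c were lower. Ntn1 read 34.3, 12.6, 29.7, 23.2 and 11 CPM in EpiSCs and 74.1, 89.2, 49.2 and 66.5 CPM in DE, a log2 change of 1.65 ± 0.34 (SE, adjusted p = 0.00175). Ntn4, a laminin-binding netrin of basement membranes, read 2.66, 3.20, 4.01, 4.98 and 7.72 CPM in EpiSCs and 1.37, 0.514, 2.62 and 1.12 CPM in DE, a log2 change of -1.69 ± 0.53 (SE, adjusted p = 0.0176). Both netrins kept their groups apart, Ntn4 only narrowly (2.66 CPM in EpiSC replicate 1 and 2.62 CPM in DE replicate 44). With EpiSC replicates 1 and 4 alone, the log2 change of Ntn1 was 1.04. In that fit Ntn4 lost its call, with a log2 change of -1.31 (adjusted p = 0.186). Unc5b, a receptor of netrin 1, read 188, 170.0, 288, 241 and 175 CPM in EpiSCs and 54.4, 47.8, 49.7 and 42.6 CPM in DE, a log2 change of -2.13 ± 0.19 (SE, adjusted p = 8.18e-06). Unc5c changed by -3.24 on few counts, 68 over the EpiSC libraries and 6 over the DE libraries, with no call by DESeq2, and Unc5a and Unc5d were not called.

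The Unc5b start, like that of Sema7a, was more open in DE although its RNA was lower. The peak at chr10:60831430-60831706 read 11.4, 15.4, 11.5 and 11.2 CPM in EpiSCs and 16.1, 29.6, 17.9 and 22.8 CPM in DE, a log2 change of 0.79 ± 0.22 (SE, adjusted p = 0.004). The lowest DE library was above the highest EpiSC library, which was replicate 4. Its 250 bases before the start are shown for the motif word they carry, on the minus strand at chr10:60831582-60831831 (RefSeq, GRCm38.p6), with capitals under the peak.
Unc5b: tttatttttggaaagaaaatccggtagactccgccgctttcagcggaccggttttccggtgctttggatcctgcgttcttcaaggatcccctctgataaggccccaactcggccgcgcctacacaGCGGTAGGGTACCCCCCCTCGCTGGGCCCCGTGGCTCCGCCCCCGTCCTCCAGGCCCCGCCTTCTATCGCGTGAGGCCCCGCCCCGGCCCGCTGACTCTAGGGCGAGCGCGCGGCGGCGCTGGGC
The 6 words searched on both strands of such windows were chosen for factors known from these cell states. GATAAG stands for Gata factors and TGTTTAC stands for Foxa factors of the endoderm. ACAATG is a word of Sox factors, and CTTTGAT is one of the Tcf and Lef factors that act in Wnt signalling. The octamer word of Pou factors was ATGCAAAT, and for the Smad proteins downstream of activin the word was CAGACA. The Unc5b window holds GATAAG once, in the part outside the peak, and 6.55% of 32851 RefSeq windows of this length hold it. The Sema4a window holds ACAATG once (10.7% of windows) and CAGACA in 2 places (17.1% of windows), one of them overlapping the Sox word. The Sema4f and Sema7a windows hold none. A match describes letters in the window and is not a binding site.

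Of the 20 members without a call, 14 were tested. Their log2 changes ran from -2.0 (Sema3d) to 1.17 (Sema3b). Epha4, Epha5, Epha10, Ephb2, Efnb3, Plxna2, Plxnc1, Robo3, Sema4c, Sema6b, Unc5a and Unc5d lay between. The remaining 6 (Epha6, Ntn5, Plxnb3, Robo2, Robo4 and Sema3g) had too few counts to be tested. Robo4, known from endothelium, and Sema3g had no count in any DE library, where 3 counts correspond to a group mean of 0.0913 CPM.

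Other genes of the pathway, from a list of receptors, ligands and signal transducers that are not members, changed in both directions. Among 77 such genes found and 69 tested, DE was higher for 19 and lower for 27, and the median of their log2 changes was -0.35. Flrt3, a membrane protein that binds Unc5 receptors, ranged from 3.10 to 32.1 CPM in EpiSCs and from 101 to 249.7 CPM in DE, a log2 change of 3.58 ± 0.68 (SE, adjusted p = 0.00101). Cd72, a receptor of Sema4d, ranged from 0 to 0.0324 CPM in EpiSCs and from 1.59 to 3.51 CPM in DE. Both were higher in every DE library than in any EpiSC library. Trio, a protein that acts downstream of netrin receptors, ranged from 119 to 204 CPM in EpiSCs and from 1.07 to 4.78 CPM in DE, a log2 change of -5.49 ± 0.42 (SE, adjusted p = 3.39e-06). Nrcam, an adhesion protein that partners neuropilins, ranged from 42.5 to 79.2 CPM in EpiSCs and from 1.43 to 4.93 CPM in DE, and Nell2, a secreted ligand of Robo3, from 5.20 to 7.40 CPM in EpiSCs and from 0 to 0.614 CPM in DE. All 3 were lower in DE without overlap. Among signal transducers alone, 17 of 53 were higher and 21 lower. The part of the neuroectoderm markers, given above, in these differences and in those of the members was not tested.

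The EpiSC libraries of B6 differed from each other at several guidance genes. Of 38 members with a mean of at least 10 CPM, 5 (13.2%) spanned at least 4-fold between the lowest and highest of the 5 libraries, against 3.30% of 9139 genes at that level. This is a description with no test. Sema3a read 1.44, 11, 5.45, 14.3 and 25.7 CPM, a span of 17.8-fold, and Slit2, listed above, spanned 9.33-fold. Plxna2 read 79.7, 15.8, 80.5, 33.0 and 16.3 CPM, a span of 5.09-fold. Sema5b read 15.1, 10.4, 15.9, 4.6 and 21.6 CPM, a span of 4.70-fold, and Nrp1 spanned 4.67-fold. These genes did not share an order: Slit2 and Plxna2 were high in replicates 1 and 4, whereas Sema3a and Nrp1 were highest in replicate 51 and lowest in replicate 1. The summed definitive endoderm markers were 328, 67.7, 261, 193 and 32.9 CPM in replicates 1, 2, 4, 44 and 51, also highest in 1 and 4, and the feeder sum was highest in replicate 51 and lowest in replicate 1. Whether either list has a part in these spans was not tested.

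**Figure D3:**
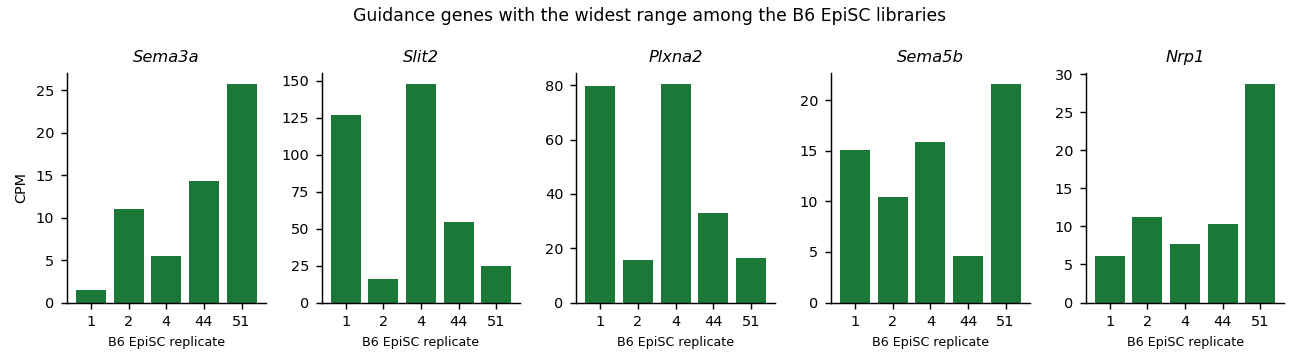
Level in CPM (axis from 0) of the 5 guidance genes with the widest span, in each of the 5 B6 EpiSC libraries, 1 bar per library. Slit2 and Plxna2 are highest in replicates 1 and 4, and Sema3a, Sema5b and Nrp1 in replicate 51.

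Accessibility at the members was counted in the region within 1000 bases of each start and over the whole locus, meaning the gene and 10000 bases on each side of it. A start was given for 58 members. For Efnb3, Ntn1, Plxna1, Plxna4, Sema3b, Sema3f, Sema6a, Slit1 and Unc5d both ends of the gene were used instead. A start peak counted for these may therefore lie at the far end of the gene. Start peaks of all genes were taken at given starts only. At starts, 95 peaks of 59 members were tested, of which 12 were higher in DE and 18 lower (31.6%). Start peaks of all genes were called in 31.1% of cases, 15.6% higher and 15.5% lower. When libraries were scaled by their total count, which moves the median of all peaks to -0.22, the split was 8 higher and 26 lower. Of all peaks tested, 29.3% were higher and 32.2% lower under that scaling, against 32.6% and 25.0% under TMM scaling. The share for start peaks of all genes was not counted under it. The largest called start changes were at Sema4d (3.29) and Epha2 (2.66), both on the log2 scale, and the RNA of both genes was lower in DE. Of 54 members with a tested start peak and tested RNA, 14 were called in both by their most accessible peak. In 4 of these both were higher, in 5 both were lower, and in 5 the RNA was lower and the peak higher. The directions were the same in 64.3% of the 14, and in 69.2% of 1588 genes called in both across the genome. For 28 of the 54 members the RNA was called and that peak was not, and the same held for 4571 of 9651 genes across the genome. The 1588 genes called in both were also out of these 9651.

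Over whole loci, more peaks opened than closed. Of 811 locus peaks, 303 (37.4%) were higher in DE and 178 (21.9%) lower. At the loci of all protein-coding genes 30.4% of peaks were higher and 23.3% lower (53.7% in all). Efna5, the least changed A-class ephrin in RNA, had 21 of 27 locus peaks higher in DE, and Robo1 had 19 of 33. Ephb2 and Plxna2, whose RNA was not called, had 17 of 31 and 14 of 28 higher. Slit3 had 18 higher and 14 lower among 45 peaks, and its RNA was lower in DE. Among genes with lower RNA, Unc5b had 10 peaks higher and 5 lower, Sema5a 7 and 3, and Plxnd1 6 and 3. Loci with more peaks higher than lower thus included genes with higher RNA, with lower RNA and with no RNA call.

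**Figure D4:**
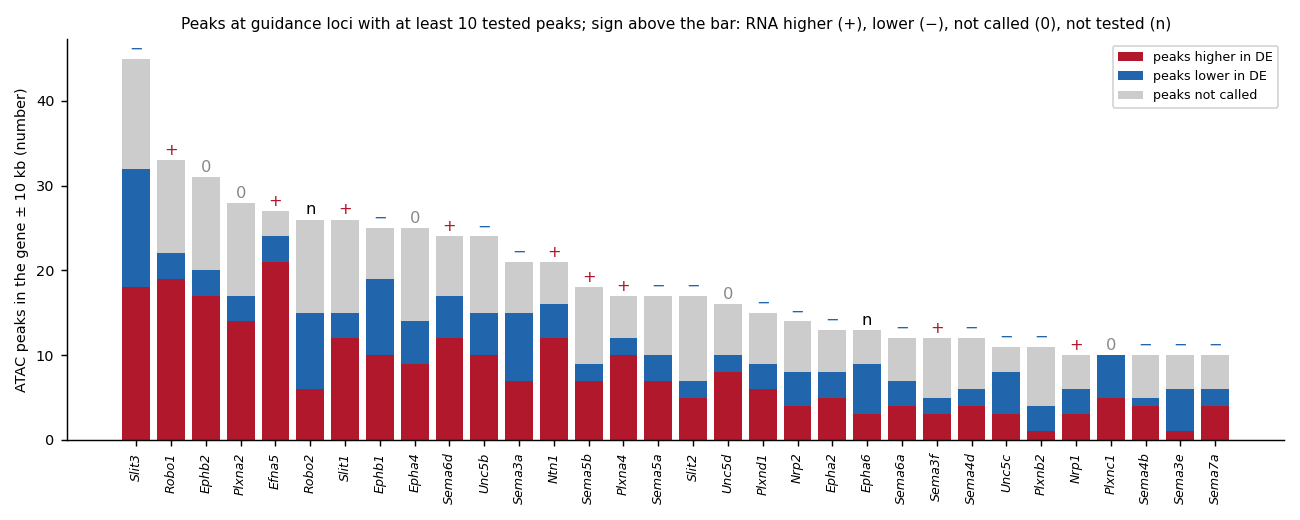
Number of ATAC peaks in each guidance gene and the 10 kb on each side, for loci with at least 10 tested peaks, divided into peaks higher in DE (red), lower (blue) and not called (grey). The sign above each bar gives the RNA call; Efna5 and Robo1 are mostly red with higher RNA, and Slit3 is divided with lower RNA.

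The 3 largest called changes in each direction at well-covered locus peaks without overlap were at 6 genes. A peak 221008 bases from the Efna5 start, at chr17:62660222-62660395, read 0, 0.200, 0.510 and 0.155 CPM in EpiSCs and 12.1, 10.7, 8.59 and 7.49 CPM in DE, a log2 change of 5.54 ± 0.51 (SE, adjusted p = 2.21e-08). At Plxna2, chr1:194761902-194762270 read 0.640, 1.3, 1.02 and 0 CPM in EpiSCs and 20.0, 24.5, 21.8 and 15.6 CPM in DE, a log2 change of 4.70 ± 0.40 (SE, adjusted p = 9.55e-09). The peak at chr9:57945886-57946060, 5861 bases from the Sema7a start, read 0, 0.601, 0 and 0.620 CPM in EpiSCs and 14.2, 8.39, 13.6 and 2.31 CPM in DE, a log2 change of 4.68 ± 0.63 (SE, adjusted p = 3.09e-06). These 3 were open in every DE library and at most 1.3 CPM in every EpiSC library, with RNA higher (Efna5), not called (Plxna2) and lower (Sema7a). In the opposite direction, the Robo1 peak at chr16:72194436-72194651 read 10.4, 8.31, 5.87 and 17.8 CPM in EpiSCs and 0, 0.329, 0 and 0.577 CPM in DE, a log2 change of -5.67 ± 0.61 (SE, adjusted p = 1.69e-07). Ephb1 had such a peak at chr9:102235421-102235621, with 10.4, 8.71, 19.1 and 7.75 CPM in EpiSCs and 0, 0, 0.716 and 0 CPM in DE. Epha6 had another at chr16:59643850-59644087, with 15.8, 10.9, 6.38 and 20.3 CPM in EpiSCs and 1.23, 0.494, 0 and 0 CPM in DE. Each of these closing peaks had at most 1.23 CPM in any DE library.

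The strain comparison asked whether guidance genes differ between EpiSCs of different mouse backgrounds; the 3 strains with replicates were fitted together, and the 3 contrasts share groups. PWK differed from B6 at 17 of 63 members tested. Of these, 12 were higher and 5 lower in PWK, where 12% of all genes were higher and 14.5% lower (26.5% in all). Sema3c was the clearest rise. It read 4.51, 9.33, 5.04, 8.25 and 6.96 CPM in B6 replicates 1, 2, 4, 44 and 51, and 36.3, 37.8 and 31.5 CPM in PWK replicates BioRep695, BioRep698 and unnumbered, a log2 difference of 2.37 ± 0.25 (SE, adjusted p = 7.26e-05). Sema3d, on the same chromosome, was also higher, by 2.02, and Sema3e, also there, fell by 1.00 on the log2 scale. Epha1 was lowest in PWK, at 113, 105 and 118 CPM against 256, 253, 231, 223 and 218 CPM in B6, a log2 difference of -1.08 ± 0.09 (SE, adjusted p = 1.15e-05). Epha2 and Efna2 were lower too, by log2 differences of -0.80 and -0.74. PWK reads were counted on mm10, a reference of another strain, so sequence differences can lower PWK counts. The part of such differences was not tested. Efnb1 read 5.07, 8.5, 8.09, 8.49 and 10.8 CPM in B6 and 16.7, 18.6 and 20.5 CPM in PWK, a log2 difference of 1.19 ± 0.24 (SE, adjusted p = 0.00428). Ephb3 read 18.8, 17.1, 26.4, 22.1 and 20.0 CPM in B6 and 29.8, 32.3 and 34.7 CPM in PWK, a log2 difference of 0.63 ± 0.13 (SE, adjusted p = 0.0057). PWK was above every B6 library for both of these EphB-ephrin-B genes. Ephb6 read 3.25, 5.76, 5.85, 6.37 and 7.34 CPM in B6 and 11.8, 11.5 and 15.1 CPM in PWK, a log2 difference of 1.16 ± 0.26 (SE, adjusted p = 0.0072). Nrp2 read 10.3, 10.5, 12.4, 11.2 and 26.8 CPM in B6 and 34.0, 44.7 and 36.4 CPM in PWK, a log2 difference of 1.43 ± 0.31 (SE, adjusted p = 0.00678). Again the groups did not overlap. Only 6 members were called higher without PWK replicate BioRep695 or BioRep698 and 7 without the unnumbered PWK library. Of all genes, 7.49%, 7.47% and 7.55% were called higher in these fits. The count called lower was 3 without PWK replicate BioRep698 (8.87% of all genes) and 8 without B6 replicate 51 (16.8% of all genes). Feeder sums were 2850 to 3944 CPM in PWK and 150 to 3488 CPM in B6. Against the 3 B6 libraries with the highest sums (replicates 2, 44 and 51), 9 members were called higher and 5 lower. In that fit 11.2% of all genes were called higher and 13.9% lower.

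B6.129 F1 EpiSCs had no guidance gene called higher than in B6 by edgeR and 7 called lower, with 1.34% of all genes higher and 1.5% lower (2.84% in all). In all, 24 members were under an unadjusted p of 0.05. No share of all genes was counted at that limit, here or for the unadjusted counts below. Sema4a read 0.417, 0.783 and 0.689 CPM in B6.129 F1 replicates 4, 9 and unnumbered, against 2.10, 2.38, 3.05, 2.42 and 3.04 CPM in B6, a log2 difference of -2.04 ± 0.28 (SE, adjusted p = 0.0234). Robo1 read 14.1, 13.2 and 14.2 CPM in B6.129 F1 and 26.7, 26.1, 33.0, 22.7 and 25.8 CPM in B6, a log2 difference of -0.96 ± 0.12 (SE, adjusted p = 0.0234). PWK, at 26.5, 26.9 and 27.0 CPM, fell inside the B6 range for Robo1. Efnb1 read 2.33, 4.24 and 2.84 CPM in B6.129 F1, a log2 difference from B6 of -1.38 ± 0.26 (SE, adjusted p = 0.0314), so that it was lowest in B6.129 F1 and highest in PWK. Sema7a, Nrp1, Ephb4 and Ntn4 were the other members called lower, with adjusted p between 0.0426 and 0.0494. These calls hang on the fit. None was made with only the B6 and B6.129 F1 groups in the model (23 members were under an unadjusted p of 0.05), where 0 of 14132 genes were called. DESeq2 called 2 members higher and 18 lower, with 5.91% of all genes higher and 7.58% lower. No member was called without B6.129 F1 replicate 4 or the unnumbered library (20 and 22 members under an unadjusted p of 0.05). Of all genes, 0 were called higher and 2 lower without replicate 4, and 0 either way without the unnumbered library. Leaving out B6 replicate 1 gave 2 higher and 13 lower (6.79% and 6.45% of all genes). Leaving out B6 replicate 2 gave 2 higher and 7 lower (2.41% and 2.71% of all genes). Leaving out B6 replicate 44 gave 2 lower (0.339% of all genes). Leaving out B6 replicate 4 or B6.129 F1 replicate 9 gave 3 lower (0.760% and 0.357% of all genes). Against B6 replicates 1 and 4 alone, the libraries with the lowest feeder sums, 2 members were called higher and 9 lower (3.37% and 4.54% of all genes).

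PWK and B6.129 F1 differed at 34 members. Of these, 30 were higher in PWK and 4 lower, where 20.7% of all genes were higher and 19.4% lower (40% in all). Nrp1 was 34.9, 34.4 and 32.6 CPM in PWK and 2.19, 3.13 and 3.48 CPM in B6.129 F1, a log2 difference of 3.53 ± 0.53 (SE, adjusted p = 0.000705). Epha1, Epha2, Sema3e and Efna2 were the 4 lower members, which were also lower in PWK than in B6. Feeder content went with this contrast: all 15 feeder markers were higher in PWK than in B6.129 F1, and their sums were 240 to 339 CPM in B6.129 F1, below those of every PWK library. Sema3a, Nrp1 and Epha3, highest in the B6 replicate with the most feeder signal, were among the 30 members, with log2 differences of 3.54, 3.53 and 3.53. The part of feeder RNA in the 30 was not tested. Epha1 and Epha2 read lower in the strain with the higher feeder sum.

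**Figure D5:**
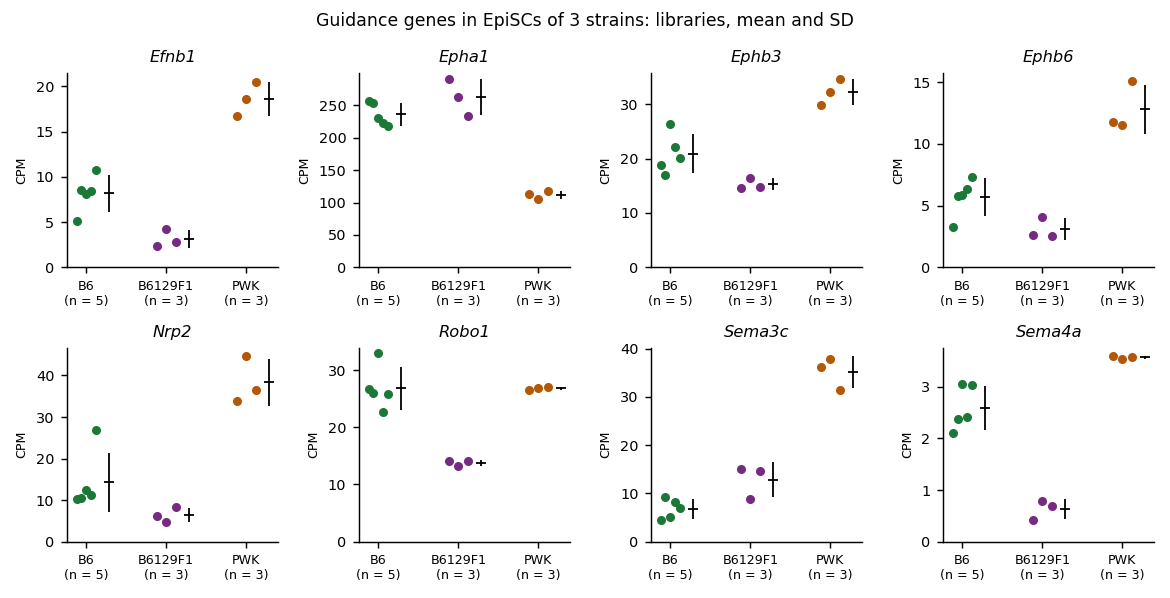
Level in CPM (axes from 0) of 8 guidance genes in EpiSCs of B6 (5 libraries), B6.129 F1 (B6129F1, 3 libraries) and PWK (3 libraries), 1 point per library, with the mean and SD beside each group. PWK lies apart for Epha1 (low) and Sema3c (high), and B6129F1 lies below B6 for Robo1 and Sema4a.

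The single DBA library allowed no test. Against the mean of the B6 libraries, 3 of 60 members with a mean of at least 1 CPM were past 2-fold, all higher in DBA, while 6.43% of all genes were past 2-fold. Sema4b read 15.3 CPM in DBA and 0.754 to 11.4 CPM in B6, Ephb1 8.14 CPM against 1.96 to 3.89 CPM, and Ntn1 51.4 CPM against 11.2 to 35.9 CPM. DBA lay above the B6 range in each case. Single B6 libraries, each set against the mean of the other B6 libraries, had 8.33% to 18.3% of the 60 members past 2-fold, where DBA had 5%. Of all genes, 2.26% to 8.99% were past 2-fold in these B6 libraries.

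Few peaks at guidance loci were called between PWK and B6 EpiSCs. Of 871 locus peaks, 13 were higher and 23 lower in PWK (4.13%). At all protein-coding loci 1.27% were higher and 3.23% lower, 4.5% in all. Here too, sequence differences from the mm10 reference, which is of another strain, can lower PWK counts. Their part was not tested. Sema3c, higher in PWK in RNA, had 1 called peak, at chr5:17707912-17708120, with a log2 difference of 2.19. Slit3 had 1 peak higher and 2 lower. The Robo1 peak that closed in DE was also lower in PWK than in B6, by a log2 difference of -1.69. With 2 PWK libraries the counts moved with single libraries, from 7 to 17 higher and from 8 to 28 lower when each was left out in turn. Shares of all peaks moved as well, from 0.753% to 1.51% higher and from 1.99% to 3.53% lower.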

How the data were processed

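RNA was measured in 16 of the libraries used (polyA-selected, stranded paired-end sequencing) and open chromatin in 11 (Omni-ATAC). The deposited tables hold whole-number read counts per Ensembl gene and per ATAC peak, not normalized by the authors. Per the submitters' processing notes, the build was mm10 and the tools were Salmon, featureCounts and DESeq2 for RNA and fastp, Bowtie2, MACS2, featureCounts and DESeq2 for ATAC; versions, the use of strand, whether peaks were called per sample, and whether peak starts count from 0 are not given in the sources used here. Reads from a gene and an overlapping one on the other strand may therefore be mixed: 36 of the 67 members overlap another RefSeq gene, 6 of them a protein-coding one.

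Counts were tested in R 4.3.3 with edgeR 4.0.16 (limma 3.58.1): TMM scaling, filterByExpr, a robust quasi-likelihood fit and Benjamini-Hochberg adjustment over all features, with a call at an adjusted p under 0.05. B6 DE and B6 EpiSC were fitted alone, and EpiSCs of the 3 strains with replicates together; the ATAC tables for DE and for strains were counted over different peaks and fitted apart. In ATAC, a start peak lay within 1000 bases of a RefSeq start for the 58 members with a start given. For the other members it lay within 1000 bases of either end of the gene. A locus peak lay within 10000 bases of the gene. The fits were checked on simulated data. Full library values are given for up to 3 called members in each direction per family by fold and for the 8 with the smallest adjusted p between strains, with a group mean of at least 1 CPM, and for their most accessible start peak. Of the pathway list, the called genes with the largest changes are given, except 1 that is not reported here. The members and gene lists were chosen with earlier results of these data known. No library was a copy of another of its group: chi-square per feature was at least 10.2 in RNA pairs and 2.87 in ATAC pairs. Alternatives were other scalings, filters, windows, DESeq2 1.42.0, a 2-fold limit, a replicate block and each replicate left out; fits on B6 EpiSC libraries of low or high feeder sum were chosen after seeing the data. The 17 columns of other series and 3 PWK DE samples were not used. Library totals set the precision, and floors (3 counts per library) cover counting error only.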

Additional observations from a re-analysis of the deposited data

Results flagged for a closer look

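In 8 of 116 groups of 4 or 5 libraries, 1 library stood apart from the others by the gap test of Dixon at the 95% level, which chance gives in about 1 of 20 groups. For RNA these were EpiSC replicate 51 for Nrp1 (28.7 CPM, the others 6.14 to 11.2) and for Nrp2 (25.8 CPM, the others 9.90 to 12.2), both in the library with the highest feeder sum. EpiSC replicate 1, with the lowest feeder sum, was low for Sema6c (8.99 CPM, the others 15.3 to 17.0). DE replicate 51 was high for Slit3 (14.2 CPM, the others 5.16 to 5.95). In ATAC, the Unc5b start peak was high in EpiSC replicate 4 (15.4 CPM, the others 11.2 to 11.5) and the Sema4a start peak in EpiSC replicate 51 (17.5 CPM, the others 13.1 to 13.5). DE replicate 44 was low at the Slit2 start peak (5.58 CPM, the others 8.65 to 9.05) and held the few reads of the Ephb1 locus peak (0.716 CPM, the others 0). The cause of these gaps was not tested.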

How the results depend on the processing

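No call of a member changed sign under any alternative run. Of the values of the members given by library, 761 kept their side of the threshold under an alternative, 9 gained a call and 35 lost it. For RNA of B6 DE against EpiSC, with 19 members higher and 28 lower, leaving out 1 library gave 16 to 20 higher and 25 to 29 lower, and EpiSC replicates 1 and 4 alone gave 12 higher. Of all genes, 29.1% to 31.6% were called higher and 27.7% to 31.8% lower when 1 library was left out. For PWK against B6 (12 and 5), leaving out 1 library gave 6 to 15 higher and 3 to 8 lower, and a 2-fold limit gave 2 lower (4.68% of all genes). Shares of all genes moved as well when 1 library was left out, from 7.47% to 16.4% higher and 8.74% to 16.8% lower. For B6.129 F1 against B6 (0 and 7), leaving out 1 library gave 0 to 2 higher and 0 to 13 lower. There DESeq2 gave 2 higher and 18 lower, no filter 3 lower (0.707% of all genes), only the 2 groups 0 lower, and B6 replicates 1 and 4 alone 2 higher and 9 lower. Shares of all genes in the other fits are given with the strain results above. For PWK against B6.129 F1 (30 and 4), the ranges were 20 to 27 and 3 to 4. Of all genes, 14.4% to 17.1% were called higher and 13.6% to 16.7% lower in these fits. The 2-fold limit gave 21 higher and 1 lower (13.3% and 5.81% of all genes). With only the 2 groups, 37 were higher and 9 lower (27.3% and 26.9% of all genes).

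At start peaks (12 and 18), leaving out 1 library gave 8 to 11 higher and 16 to 23 lower, a 2-fold limit 5 and 6, and total-count scaling 8 and 26. Locus peaks (303 and 178) ranged from 280 to 321 and 184 to 227, and a filter of 10 counts in every library, which tests fewer peaks, left 86 and 52. Of all peaks, 27.4% to 33.2% were higher and 24.0% to 29.9% lower when 1 library was left out. These shares were 29.3% and 20.6% with the 2-fold limit, 29.3% and 32.2% with total-count scaling, and 22.0% and 18.1% with the filter. For PWK locus peaks (13 and 23) the ranges were 7 to 17 and 8 to 28, and that filter left 4 and 5. Of all peaks in that comparison, 0.753% to 1.51% were higher and 1.99% to 3.53% lower when 1 library was left out. With the filter 0.979% were higher and 2.12% lower. The replicate numbers were not taken as pairs, because not every correlation was over 0.1 and no label gives a shared origin: same-numbered DE and EpiSC libraries correlated at 0.141, 0.066, 0.151 and 0.187 in RNA and 0.047, -0.013 and 0.028 in ATAC. In RNA, 3 of the 4 DE libraries, all but replicate 4, correlated best with the EpiSC library of their own number, and in ATAC 2 of 3, all but replicate 44, which is a hint from the data, not the design. With the replicate block, 16 members were higher and 26 lower in RNA, against 18 and 27 from the same libraries with no block. Of all genes, 27.2% were higher and 28.2% lower with the block, and 29.9% and 28.8% with no block. Efnb1, Ephb1, Ephb4, Ephb6 (adjusted p = 0.0829), Sema4a (adjusted p = 0.0606) and Sema5b had no call with the block, which left 1 EphB gene higher and 0 lower (3 and 1 with no block), and the Slit2 log2 change was -1.25. The replicate block gave 8 start peaks higher and 8 lower (8 and 11 with no block) and 271 and 131 locus peaks (291 and 159 with no block). Of all peaks, 27.0% were higher and 17.7% lower with the block (28.9% and 21.5% with no block). Levels under about 1 CPM rest on few counts, which limits Epha3, Sema4f and Unc5c.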
